A study of Mus musculus with 12 samples.

Results

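The genes described here drive or mark cell division: cyclins and their kinases, DNA replication factors, mitotic regulators and cell cycle inhibitors, 45 genes taken from a list of symbols. Of the 45, 43 were measured among 19938 genes on the arrays, each by its probe set of highest mean signal. They fall into 9 genes of G1 entry, 14 of S phase, 19 of mitosis and 1 inhibitor. Ccnb1, listed with mitosis, was not matched to a probe set with a single gene symbol, and the probe set of the inhibitor Cdkn1a carries several symbols, so neither is analysed here.

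Skin cells of untreated wild-type B6 mice kept under specific-pathogen-free conditions (SPF) were sorted and profiled on 12 arrays, 3 for each of 4 groups. Melanophages, which are macrophages filled with melanin taken up from other cells, and other macrophages were each divided into MHC-II-negative and MHC-II-positive cells. The gate shared by all groups took CD64-positive, CD11b-positive cells that lacked CD24, Ly6c and CCR2. Melanophages had a high side scatter, while for macrophages the sample titles give a high and the phenotype field a low one. Values are log2 expression after robust multi-array averaging, so a difference of 1 is a 2-fold difference, and levels of different genes are not compared. Replicates are numbered within a group in the order of deposition. Whether replicates are different animals is not stated in the labels, so the p-values cover the spread among these samples alone, and part or all of it may be technical. In such bulk samples, fewer dividing cells and less RNA per dividing cell cannot be told apart.

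In cycling cells, D-type cyclins with Cdk4 and Cdk6 and then cyclin E with Cdk2 drive entry into S phase, where E2F factors switch on the replication genes. Cyclin A and cyclin B with Cdk1 drive mitosis, whose genes are switched on later and carry elements called the cell cycle genes homology region (CHR) and CCAAT boxes in their promoters. Tissue macrophages of skin can renew themselves by division in place, and some are replaced from blood monocytes.

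The promoter letters differed between the roles that are kept apart below, and the following stretches show them for 4 genes described below. Each is the 250 bases before a RefSeq transcript start in assembly GRCm38.p6, read 5′ to 3′ on the gene's strand. Capitals mark an E2F word in Rrm1 (chr7:102441445-102441694, plus strand) and TTTGAA, the CHR word, on either strand in Mki67 (chr7:135716380-135716629, minus strand), Ube2c (chr2:164769679-164769928, plus strand) and Ccnb2 (chr9:70421555-70421804, minus strand). In Ube2c the word lies on the opposite strand and reads TTCAAA. The Mki67 start is not the outermost end of the gene in the RefSeq gene table, and its stretch also holds an E2F word in lower case.
Rrm1: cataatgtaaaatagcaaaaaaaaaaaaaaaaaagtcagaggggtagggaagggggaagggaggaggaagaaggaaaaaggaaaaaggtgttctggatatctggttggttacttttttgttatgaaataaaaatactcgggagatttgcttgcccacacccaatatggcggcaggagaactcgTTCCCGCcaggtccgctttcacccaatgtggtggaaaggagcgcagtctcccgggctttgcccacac
Mki67: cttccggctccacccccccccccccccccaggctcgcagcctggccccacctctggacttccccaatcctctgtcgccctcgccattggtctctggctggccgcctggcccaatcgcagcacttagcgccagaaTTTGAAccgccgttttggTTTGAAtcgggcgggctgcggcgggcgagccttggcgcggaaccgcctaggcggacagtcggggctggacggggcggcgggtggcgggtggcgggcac
Ube2c: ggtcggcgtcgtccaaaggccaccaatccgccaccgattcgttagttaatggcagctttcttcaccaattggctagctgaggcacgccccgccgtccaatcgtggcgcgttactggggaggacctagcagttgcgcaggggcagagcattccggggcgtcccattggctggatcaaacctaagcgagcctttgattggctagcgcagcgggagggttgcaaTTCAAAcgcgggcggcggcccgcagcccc
Ccnb2: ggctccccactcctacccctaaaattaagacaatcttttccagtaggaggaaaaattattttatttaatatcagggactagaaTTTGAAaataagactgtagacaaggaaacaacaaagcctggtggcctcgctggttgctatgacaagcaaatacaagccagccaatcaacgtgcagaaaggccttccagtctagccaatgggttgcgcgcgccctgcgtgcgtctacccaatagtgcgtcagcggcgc

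Counted back from the start, the marked words begin at base -67 in Rrm1, at -116 and -98 in Mki67, at -29 in Ube2c and at -167 in Ccnb2. Ccnb2 has 1 further match to the CHR word in the 50 bases after the start, which its stretch does not show. All windows of 300 bases, 250 before and 50 after a start, were searched on both strands, and 35 of the 43 members have such a window, with 38 windows in all. TTTGAA was found in 12 of 16 windows of mitosis genes (75%), in 2 of 14 windows of S phase genes (14.3%), in 0 of 7 windows of G1 entry genes and in 17.9% of all 32851 windows. The words searched for E2F, which were TTCCCGC with its variants TTGGCGC and then TTCGCGC as well as TTGCCGC, were in 9 of 14 windows of S phase genes (64.3%), 1 of 7 of G1 entry genes (14.3%), 2 of 16 of mitosis genes (12.5%) and 9.57% of all windows. The 2 mitosis genes with an E2F word were Cdk1 and Mki67. CCAAT was in 87.5% of the mitosis windows, 71.4% of the S phase windows, 28.6% of the G1 entry windows and 37.4% of all windows. No member window held a CHR word that overlapped an E2F word. These matches describe letters and are not binding sites.

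Array medians over all probe sets lay between 2.97 and 3.08, and a value more than 1 above its array's median is called bright here. Of the 43 members, 9 were bright in all 12 arrays (20.9%; 23.5% of all genes were): the cyclin Ccnd1 and kinase Cdk4 of G1, the S phase genes Pcna, Rrm1, Tyms and Tk1, the mitotic cyclins Ccna2 and Ccnb2, and the inhibitor Cdkn1b. A further 15 were bright in some arrays, among them Mki67, Top2a, Birc5, Cdk1, Aurka, Aurkb, Nusap1 and Ube2c. The other 19 were bright in none, including the helicase subunits and loading factors Mcm2, Mcm3, Mcm5, Mcm7, Cdc6 and Cdt1 and 9 of the 19 mitosis genes, among them Plk1, Bub1, Bub1b, Tpx2 and Cenpe. For such dim genes a log2 difference may understate the true one, and noise can move it either way.

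No member passed an adjusted p of 0.05 in any comparison. In limma's fit with Benjamini-Hochberg adjustment over all genes, 0 of 43 members were called between melanophages and macrophages among MHC-II-negative cells (0.00502% of all genes called), among MHC-II-positive cells (0.015%) or averaged over MHC-II (0.12%). Likewise 0 were called between MHC-II-positive and MHC-II-negative cells within melanophages (0.211%), within macrophages (0.341%) or averaged over cell kind (0.762%), and 0 for the interaction (0%). At an unadjusted p under 0.05, 0 members differed between MHC-II-negative melanophages and macrophages, against 5.65% of all genes. The count was 9 (20.9% of members, 6.3% of all genes) between the MHC-II-positive groups, 5 (11.6% and 5.7%) within melanophages and 7 (16.3% and 7.83%) within macrophages. It was 7 (16.3% and 7.52%) for cell kind averaged over MHC-II, 12 (27.9% and 9.23%) for MHC-II averaged over cell kind and 2 (4.65% and 4.11%) for the interaction. These comparisons share arrays, so their counts are not independent of each other.

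The differences were small. The largest absolute log2 difference of a member was 0.56 (Ccne2) and 0.64 (Mki67) between cell kinds among MHC-II-negative and MHC-II-positive cells, and 0.59 (Mcm4) and 0.62 (Cdkn1b) between MHC-II classes within melanophages and within macrophages. No member reached a 2-fold difference in these 4 comparisons. The 95% confidence interval of the difference lay within 2-fold for 40, 38, 35 and 39 of the 43 members in the same order, with a median interval half-width of 0.4 (range 0.14 to 0.79). The spread between arrays therefore leaves room for differences in signal past 2-fold in a few members. For the 19 members bright in no array the signal may understate the true difference, so a narrow interval does not bound it.

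**Figure D1:**
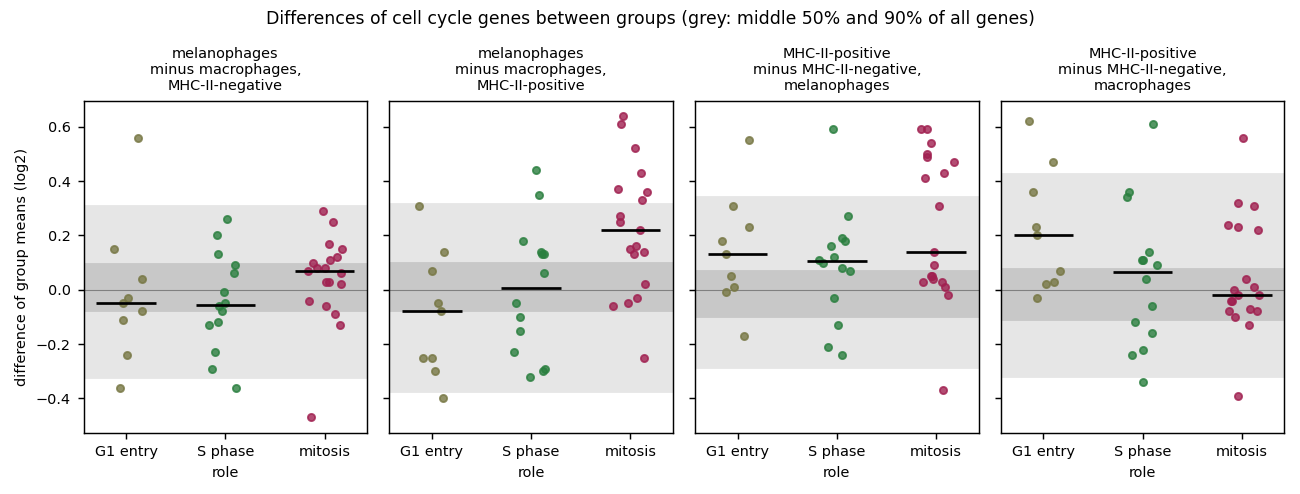
Log2 difference of group means (y axis) for each member gene (point) by role (x axis) in 4 comparisons; black bars are medians over the role, and grey bands hold the middle 50% and 90% of all genes. Mitosis genes sit highest between the MHC-II-positive groups, with a median of 0.22. Within melanophages the medians are close, at 0.14 for mitosis, 0.13 for G1 entry and 0.10 for S phase.

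The 9 genes of G1 entry had medians of -0.05 and -0.08 for melanophages minus macrophages (MHC-II-negative and MHC-II-positive) and of 0.13 and 0.20 for MHC-II-positive minus MHC-II-negative cells (melanophages and macrophages). Over all genes the 4 medians were 0.01, 0.01, -0.02 and -0.03. Above 0 were 3, 3, 7 and 8 of the 9 genes in that order, against 52.4%, 54.2%, 44.3% and 42.2% of all genes. Most G1 genes were thus a little higher with MHC-II than without it.

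Ccnd2, a D-type cyclin, measured 3.65, 3.70 and 3.56 in MHC-II-negative melanophages and 3.59, 3.87 and 3.99 in MHC-II-positive ones. It measured 3.67, 3.78 and 3.69 in MHC-II-negative macrophages and 4.15, 3.95 and 4.11 in MHC-II-positive ones. All 3 MHC-II-positive macrophage arrays lay above all 3 MHC-II-negative ones, while the melanophage groups overlapped. The macrophage difference was 0.36 ± 0.10 (SE; 95% interval 0.13 to 0.59; adjusted p = 0.295). Averaged over cell kind it was 0.27 ± 0.07 (adjusted p = 0.184), which became an adjusted p of 0.0473 without replicate 1 of the MHC-II-positive melanophages and lay between 0.0473 and 0.366 over 20 alternatives. The related Ccnd1, also a D-type cyclin, was higher in MHC-II-positive cells by 0.55 ± 0.33 in melanophages and 0.62 ± 0.33 in macrophages, with adjusted p of 0.948 and 0.703. Its highest array was replicate 1 of the MHC-II-positive macrophages.

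Cdk2, the kinase partner of cyclin E and cyclin A, measured 3.46, 3.87 and 4.01 in MHC-II-negative melanophages and 4.08, 3.84 and 3.79 in MHC-II-positive ones. In macrophages it measured 3.94, 3.90 and 3.64 without MHC-II and 4.49, 4.41 and 4.0 with it. The macrophage groups did not overlap (0.47 ± 0.17, interval 0.10 to 0.85, adjusted p = 0.48), whereas the melanophage groups did. Ccne2, a cyclin E, was set apart by 1 array: it measured 4.08, 5.31 and 3.97 in MHC-II-negative melanophages against 3.81, 3.94 and 3.93 in MHC-II-negative macrophages. Its values in the MHC-II-positive groups were 4.22, 4.45 and 4.17 for melanophages and 4.07, 3.82 and 4.03 for macrophages. Melanophages lay above macrophages without overlap in both MHC-II classes, by 0.56 ± 0.28 (adjusted p = 0.928) and 0.31 ± 0.28 (adjusted p = 0.926). Without replicate 2 of the MHC-II-negative melanophages the first of these was 0.13. Cdk4, Cdk6, Ccnd3, Ccne1 and E2f1 overlapped between the groups in all 4 comparisons.

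The 14 S phase genes had medians of -0.05 and 0.00 for melanophages minus macrophages, and 0.10 and 0.06 for MHC-II-positive minus MHC-II-negative cells, in the order used above. Above 0 were 5, 7, 10 and 8 of the 14, and all genes had medians of 0.01, 0.01, -0.02 and -0.03. At an unadjusted p under 0.05 in limma's fit, 4 of the 14 (28.6%) were higher in MHC-II-positive cells averaged over cell kind, where 9.23% of all genes differed in either direction. The median within macrophages was -0.01 without replicate 3 and 0.14 without replicate 1 of the MHC-II-negative macrophages, and that between the MHC-II-positive groups was -0.10 without replicate 3 of the MHC-II-positive macrophages. The mean S phase deviation from the 12-array mean spanned only -0.09 to 0.14 over the arrays, and its highest array was replicate 1 of the MHC-II-positive macrophages.

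Rrm1, the large subunit of ribonucleotide reductase, which makes deoxynucleotides, was the member nearest to the threshold. It measured 4.41, 4.20 and 4.09 in MHC-II-negative macrophages and 4.99, 4.59 and 4.97 in MHC-II-positive ones. In melanophages it measured 4.45, 4.41 and 4.44 without MHC-II and 4.71, 4.74 and 4.41 with it. The macrophage groups did not overlap and the melanophage groups met at 4.41. The macrophage difference was 0.61 ± 0.13, a 1.53-fold one (interval 0.32 to 0.90, adjusted p = 0.114), and the melanophage difference 0.19 ± 0.13 (adjusted p = 0.955). Without replicate 2 of the MHC-II-positive macrophages the first was 0.74 with an adjusted p of 0.0485, and over its 21 alternatives the adjusted p ran from 0.0485 to 0.408. The interaction was -0.42 ± 0.19 (adjusted p = 1). Its partner subunit Rrm2, whose level follows S phase closely, had a macrophage difference of -0.12 ± 0.20 (adjusted p = 0.932).

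Mcm7, a subunit of the replicative helicase, measured 3.48, 3.32 and 3.27 in MHC-II-negative macrophages and 3.74, 3.83 and 3.57 in MHC-II-positive ones. Its melanophage values were 3.28, 3.25 and 3.29 without MHC-II and 3.64, 3.31 and 3.22 with it. Only the macrophage groups stood apart, by 0.36 ± 0.11 (interval 0.11 to 0.61, adjusted p = 0.367), and no array was bright. The other helicase subunits differed in sign. Mcm4 was higher in MHC-II-positive cells by 0.59 ± 0.23 in melanophages (adjusted p = 0.768) and 0.34 ± 0.23 in macrophages (adjusted p = 0.777). Mcm2 (0.10 and 0.14) and Mcm5 (0.18 and 0.11) were also higher in both, each with an SE of 0.08. Mcm6 was lower by 0.24 ± 0.35 in both, and Mcm3 differed by 0.08 and -0.22.

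Pcna, the sliding clamp of DNA polymerase, differed in the opposite direction to Rrm1 and Mcm7 in macrophages. It measured 11.08, 10.77 and 10.74 in MHC-II-negative macrophages and 10.34, 10.48 and 10.73 in MHC-II-positive ones, and in melanophages 10.54, 10.77 and 10.59 without MHC-II and 10.62, 10.84 and 10.65 with it. The macrophage groups were next to each other without overlap, at 10.74 and 10.73 for the nearest arrays (-0.34 ± 0.13, interval -0.62 to -0.06, adjusted p = 0.494). The interaction was 0.41 ± 0.18 (adjusted p = 1). A second Pcna probe set gave -0.35 for the macrophages, and similar sequences elsewhere in the genome could share signal with either. Without replicate 1 of the MHC-II-negative macrophages the Pcna difference was -0.23.

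**Figure D2:**
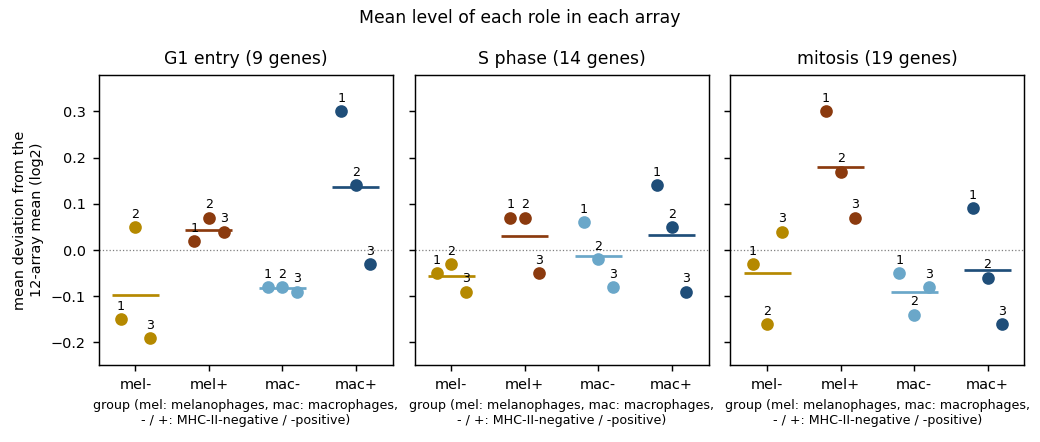
Mean deviation of each role's genes from their 12-array mean (log2, y axis) in each array, numbered by replicate, for 4 groups (x axis); horizontal lines are group means. The mitosis mean of MHC-II-positive melanophages runs from 0.07 to 0.30, and S phase lies between -0.09 and 0.14 in every array.

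The 19 mitosis genes leaned toward MHC-II-positive melanophages. Their median difference was 0.07 and 0.22 for melanophages minus macrophages without and with MHC-II, 0.14 for MHC-II-positive minus MHC-II-negative melanophages and -0.02 for the same in macrophages. Above 0 were 14, 15, 17 and 9 of the 19. Within melanophages the medians of G1 entry (0.13) and S phase (0.10) were close to that of mitosis. The mean over the 19 genes deviated from the 12-array mean by 0.30, 0.17 and 0.07 in the 3 MHC-II-positive melanophage arrays. It was 0.09, -0.06 and -0.16 in MHC-II-positive macrophages, -0.03, -0.16 and 0.04 in MHC-II-negative melanophages and -0.05, -0.14 and -0.08 in MHC-II-negative macrophages. The highest of the 12 arrays was an MHC-II-positive melanophage array for 12 of the 19 genes (63.2%), against 18.9% of all genes and 4 of the 14 S phase genes (28.6%).

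These mitosis values leaned on single arrays. Of the 12 highest values 6 were in replicate 1, 4 in replicate 2 and 2 in replicate 3 of the MHC-II-positive melanophages. Without replicate 1 the count was 7 of 19 (36.8%, against 11.5% of all genes), and without the 2 macrophage arrays farthest from their groups it was 13 (68.4%, against 27.5%). The median of 0.22 between the MHC-II-positive groups was 0.12 without replicate 1 of the melanophages, 0.14 without their replicate 2 and 0.14 without replicate 3 of the macrophages. In the MHC-II-negative comparison, the median of 0.07 was 0.04 without replicate 1 and 0.00 without replicate 3 of the melanophages. Within macrophages, the median of -0.02 was 0.03 without replicate 3 of the MHC-II-negative and 0.04 without replicate 3 of the MHC-II-positive cells. Keratinocyte markers lay in the same direction between the MHC-II-positive groups, with a median of 0.19 and 7 of 8 above 0. Of the 8, 2 (25%, against 6.3% of all genes) had an unadjusted p under 0.05 in limma's fit. Without overlap 3 were higher (37.5%, against 7.51% of all genes). Their summed linear signal was 65.8 to 75.7 in the melanophages and 59.9 to 62.6 in the macrophages, although none was bright in any array. Melanocyte markers leaned the same way, with a median of 0.11 and 5 of 6 above 0, although 4 of the 6 were bright in no array. Of them 2 (33.3%) had an unadjusted p under 0.05 in limma's fit, and 3 (50%) were higher without overlap. The part of either list in the mitosis values was not tested. No test was made over the 19 genes, since they were listed with earlier results of these data known.

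Mki67, a nuclear protein of all cycling cells, measured 4.19, 4.69 and 5.29 in MHC-II-positive melanophages and 3.89, 4.07 and 4.31 in MHC-II-positive macrophages. Among MHC-II-negative cells it measured 4.02, 4.33 and 4.59 in melanophages and 4.13, 4.16 and 4.22 in macrophages. Replicates 2 and 3 of the MHC-II-positive melanophages lay above the highest array of either macrophage group, and replicate 1 lay within their range. The difference between the MHC-II-positive groups was 0.64 ± 0.24, a 1.55-fold one (interval 0.10 to 1.17, adjusted p = 0.73), and it was 0.35 without replicate 3 of the melanophages. 

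Top2a, the topoisomerase that disentangles sister chromosomes, measured 4.11, 3.99 and 4.17 in MHC-II-negative and 4.96, 4.41 and 4.31 in MHC-II-positive melanophages. Macrophages gave 3.89, 3.91 and 4.41 without MHC-II and 4.69, 4.38 and 3.8 with it. The melanophage groups did not overlap (0.47 ± 0.24, interval -0.06 to 1.0, adjusted p = 0.908), and the macrophage groups did. Without replicate 1 of the MHC-II-positive melanophages the difference was 0.27, and a second, dimmer Top2a probe set gave 0.19.

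Cdk1, the mitotic kinase, measured 4.92, 3.86 and 4.03 in MHC-II-positive and 3.58, 3.50 and 4.23 in MHC-II-negative melanophages. In macrophages it measured 3.87, 3.29 and 3.83 without MHC-II and 4.43, 3.83 and 3.44 with it. Each pair of groups overlapped, and replicate 1 was the highest array of both MHC-II-positive groups. The melanophage difference was 0.50 ± 0.33 (interval -0.23 to 1.24, adjusted p = 0.955), or 0.18 without replicate 1 of the MHC-II-positive melanophages. Top2a, the survivin gene Birc5, the cyclins Ccna2 and Ccnb2 and Cdk1 all had their highest array in that replicate. Replicate 1 of the MHC-II-positive macrophages, of the same run of sample codes in the titles, was the highest of its group for each. It measured 4.69, 4.16, 4.98, 6.32 and 4.43 for them in that order, but was the lowest of its group for Mki67 (3.89). Mki67 had its highest array in replicate 3 of the MHC-II-positive melanophages. Whether a run moved these values was not tested.

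Ube2c, the ubiquitin-conjugating enzyme of the anaphase-promoting complex, measured 4.45, 4.64 and 3.79 in MHC-II-positive melanophages. The other groups were close to each other, at 3.76, 3.67 and 3.83 in MHC-II-negative melanophages, 3.79, 3.58 and 4.0 in MHC-II-negative macrophages and 3.85, 3.84 and 3.37 in MHC-II-positive macrophages. Replicates 1 and 2 of the MHC-II-positive melanophages lay above all other arrays, and replicate 3 among them. The difference between the MHC-II-positive groups was 0.61 ± 0.21, a 1.52-fold one (interval 0.14 to 1.07, adjusted p = 0.681), and within melanophages it was 0.54 ± 0.21 (adjusted p = 0.772). Birc5 had differences of 0.52 ± 0.21 (adjusted p = 0.762) and 0.59 ± 0.21 (adjusted p = 0.69) in these comparisons, without overlap in the second.

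Cenpe, a kinesin that carries chromosomes at the kinetochore, was bright in no array but varied little within groups. It measured 2.61, 2.56 and 2.65 in MHC-II-positive and 2.52, 2.52 and 2.62 in MHC-II-negative melanophages. Macrophages gave 2.33, 2.37 and 2.36 with MHC-II and 2.41, 2.42 and 2.48 without it. Melanophages lay above macrophages without overlap in both classes, by 0.25 ± 0.06 (interval 0.12 to 0.39, adjusted p = 0.41) and 0.12 ± 0.06 (adjusted p = 0.953), all below their arrays' medians.

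Aurka, the kinase of spindle poles, differed in the opposite direction to most mitosis genes. It measured 3.97, 3.78 and 4.04 in MHC-II-positive and 4.34, 4.28 and 4.28 in MHC-II-negative melanophages, and 4.11, 4.24 and 4.19 and 3.99, 4.32 and 4.36 in the macrophages with and without MHC-II. MHC-II-positive melanophages were lower than MHC-II-negative ones by 0.37 on the log2 scale without overlap (-0.37 ± 0.11, interval -0.60 to -0.14, adjusted p = 0.443) and lower than MHC-II-positive macrophages, also without overlap (-0.25 ± 0.11, adjusted p = 0.789). The related kinase Aurkb differed by 0.03 ± 0.21 and -0.05 ± 0.21 in the same comparisons. It differed by -0.47 ± 0.21 for melanophages minus macrophages among MHC-II-negative cells (adjusted p = 0.886). Within macrophages it differed by -0.39 ± 0.21 (adjusted p = 0.707). Its highest array was replicate 1 of the MHC-II-negative macrophages (4.11), 1 of those farthest from their group mates. 

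**Figure D3:**
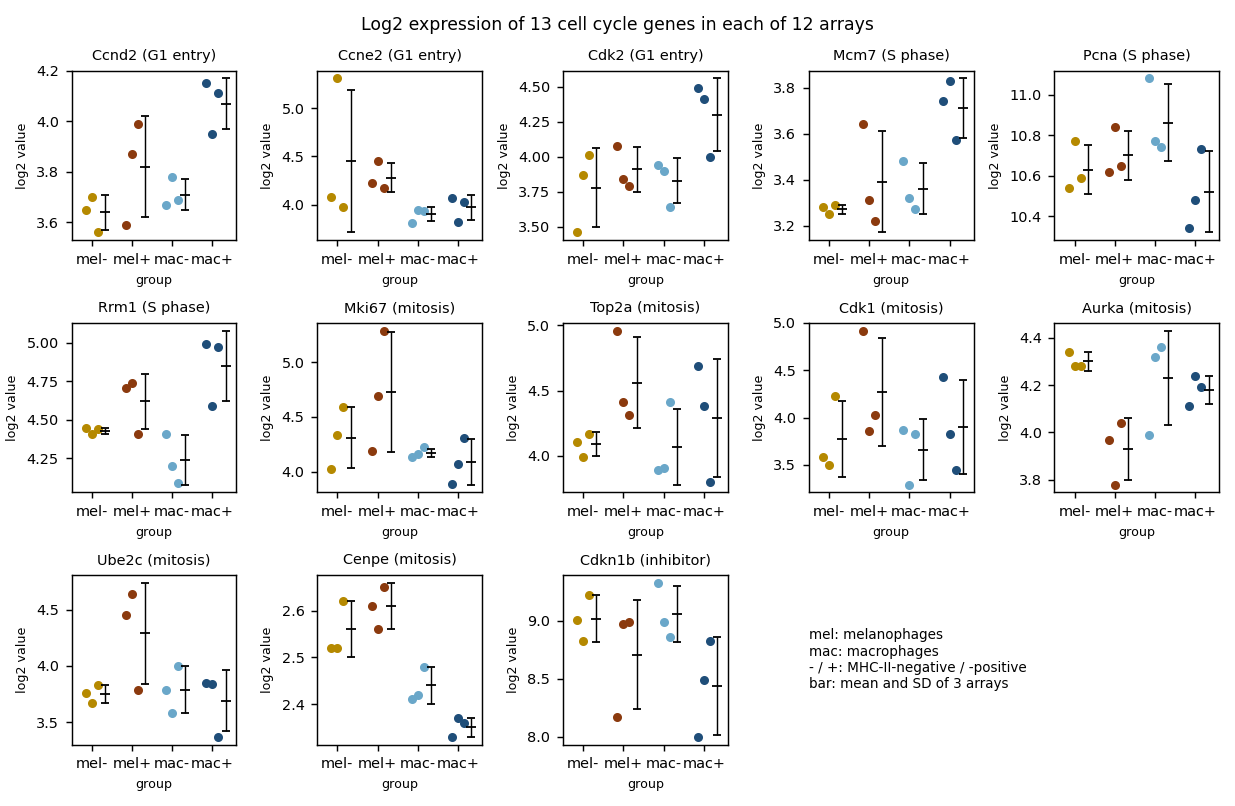
Log2 expression (y axis) of 13 members in each of the 12 arrays (points) by group (x axis), with the mean and SD of 3 arrays beside them. Rrm1 and Ccnd2 are separated between the macrophage groups, Aurka and Top2a between the melanophage groups, and for Mki67, Cdk1 and Ube2c the MHC-II-positive melanophages spread widest.

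Among MHC-II-negative cells the arrays of 4 members did not overlap and were higher in melanophages (Ccne2, Cdc45, Nusap1 and Cenpe; 9.3% of members), and 0 were lower, against 5.57% and 3.91% of all genes. Among MHC-II-positive cells 4 were higher (Ccne2, Kif20a, Prc1 and Cenpe; 9.3% of members, 7.51% of all genes) and 2 lower (Mcm2 and Aurka; 4.65% and 4.91%). MHC-II-positive melanophages were higher than MHC-II-negative ones for 4 members (Ccnd1, Mcm5, Top2a and Birc5; 9.3% and 5.12%) and lower for 2 (Cdt1 and Aurka; 4.65% and 7.13%). In macrophages 7 were higher with MHC-II (Ccnd2, Cdk2, Mcm7, Rrm1, Ccnb2, Plk1 and Nusap1; 16.3% and 4.96%) and 3 lower (Pcna, Cenpe and Cdkn1b; 6.98% and 7.07%). With 3 arrays a group, an exact permutation test of a single gene cannot go below p = 0.1.

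Cdkn1b, the p27 inhibitor of cyclin-dependent kinases, was the only inhibitor among the listed members that was analysed. It measured 9.33, 8.99 and 8.86 in MHC-II-negative macrophages and 8.0, 8.49 and 8.83 in MHC-II-positive ones, and in melanophages 9.01, 8.83 and 9.22 without MHC-II and 8.17, 8.97 and 8.99 with it. The nearest arrays of the macrophage groups were 8.86 and 8.83, without overlap, and the melanophage groups overlapped. The macrophage difference was -0.62 ± 0.26, a 1.54-fold lower level with MHC-II (interval -1.19 to -0.05, adjusted p = 0.588), and -0.40 without replicate 1 of the MHC-II-positive macrophages. A second probe set, much dimmer, gave -0.06.

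**Figure D4:**
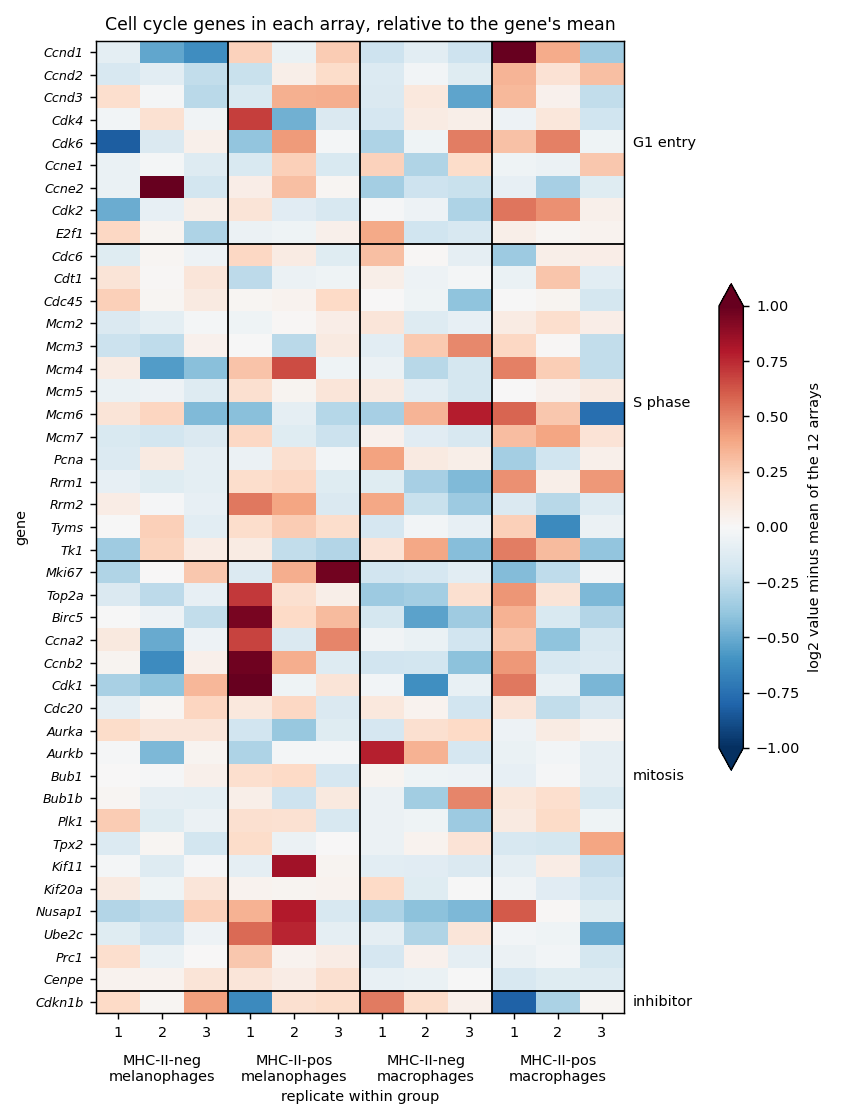
Log2 value minus the gene's mean over 12 arrays (colour) for the 43 members (rows, by role) in each array (columns, 3 replicates for each of 4 groups). Replicate 1 of the MHC-II-positive melanophages is high for Top2a, Birc5, Ccna2, Ccnb2 and Cdk1, while Mki67 is highest in replicate 3. For the same genes except Mki67, replicate 1 is also the highest of the MHC-II-positive macrophages.

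Other genes of the pathway gave no call either. Of further S phase genes 29 of 32 were measured, of further mitosis genes 37 of 38, of E2F and Rb regulators 21 of 21, of other inhibitors and p53 or quiescence genes 17 of 18 and of macrophage growth signals 13 of 14, and 0 were called in all 7 comparisons by limma. The further mitosis genes had medians of 0.02, 0.08, 0.03 and -0.01 in the order used above, and 27 of 37 lay above 0 between the MHC-II-positive groups. At an unadjusted p under 0.05 there were 2, 2, 3 and 1 of them in these 4 comparisons, 0, 2, 2 and 2 of the S phase list, 0, 0, 3 and 4 of the E2F and Rb list, 2, 2, 4 and 2 of the inhibitor list and 0, 1, 1 and 3 of the growth signal list, where 5.65%, 6.3%, 5.7% and 7.83% of all genes had such a p. For the further mitosis genes the shares were 5.41%, 5.41%, 8.11% and 2.7%, and for the S phase list 0%, 6.9%, 6.9% and 6.9%. The E2F and Rb list had shares of 0%, 0%, 14.3% and 19%. Shares were 11.8%, 11.8%, 23.5% and 11.8% in the inhibitor list and 0%, 7.69%, 7.69% and 23.1% in the growth signal list. Nearest to the threshold in each list were Slbp, which binds histone mRNA (melanophages minus macrophages, averaged over MHC-II, 0.34 ± 0.11, adjusted p = 0.455), and 4 genes for the MHC-II difference averaged over melanophages and macrophages. These were Racgap1 of the central spindle (0.39 ± 0.09, adjusted p = 0.103), the growth-related transcription factor Myc (-0.69 ± 0.14, adjusted p = 0.06), the stress gene Gadd45a (-0.96 ± 0.20, adjusted p = 0.0679) and Csf2ra, a receptor chain for GM-CSF (0.28 ± 0.07, adjusted p = 0.14). Myc measured 10.14, 9.76 and 10.03 in MHC-II-negative and 9.18, 9.69 and 9.5 in MHC-II-positive melanophages, 9.75, 10.42 and 10.51 in MHC-II-negative and 9.33, 9.47 and 9.33 in MHC-II-positive macrophages. Its MHC-II-positive arrays lay below the MHC-II-negative ones within each cell kind.

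The summed linear signal of 9 measured macrophage markers was 11500 to 13500 in all groups, and none was called. Of markers of other skin cells, 8 of 8 keratinocyte, 6 of 6 measured hair matrix, 5 of 5 endothelial and 3 of 3 measured B cell markers never reached the bright level in any array. The T and innate lymphoid markers Cd3e, Cd3d and Cd3g were likewise never bright, but Cd2 and Il7r were called higher in MHC-II-positive cells averaged over cell kind, and the summed signal of that list was 475 to 528 in MHC-II-positive against 214 to 298 in MHC-II-negative melanophages, and 395 to 898 against 81.5 to 135 in macrophages. The cells were gated as CCR2-negative, a sort label that is not a measure of RNA. In limma's fit Ccr2 RNA was called higher with MHC-II, by 10.2-fold in melanophages (adjusted p = 0.000857) and by 8.68-fold in macrophages (adjusted p = 0.000968). The monocyte list, through Ccr2, was 120 to 202 against 30.2 to 36.1 and 123 to 288 against 32.9 to 47.6. The dendritic cell list was 98.7 to 202 against 67.1 to 74.8 in melanophages and 154 to 227 against 63.1 to 83.1 in macrophages. Ccr7 averaged 6.24 with and 4.42 without MHC-II in melanophages, and 6.6 and 4.48 in macrophages. Cd207 averaged 3.17 and 2.81 in melanophages, and 5.17 and 3.13 in macrophages. In limma's fit Cd207 was called lower in MHC-II-positive melanophages than in MHC-II-positive macrophages (-2 ± 0.21, adjusted p = 0.0192). The neutrophil list was 130 to 196 in MHC-II-positive melanophages and 77.4 to 116 in MHC-II-positive macrophages, with 0 called, as in the fibroblast, mast cell and melanocyte lists. Yet only 2 of the 6 neutrophil markers were higher in these melanophages and 4 were lower. Their median difference was -0.08, with a range of -0.59 to 1.4. The part of these lists in the cell cycle values was not tested. Replicate 1 of the MHC-II-negative macrophages and replicate 3 of the MHC-II-positive macrophages stood farthest from their group mates. Their SD of the difference over all genes was 0.406 and 0.356, against at most 0.311 for the others.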

How the data were processed

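Total RNA of sorted skin cells (12 samples, 3 per group) was amplified with a NuGEN kit, biotin-labelled and hybridised to arrays, per the labels' protocols. The deposited values are log2 expression that the authors made by RMA (oligo), as the submitters' processing notes name it; the sources used here give no version, setting or filter. RMA draws arrays to a common distribution, so a shift of all genes cannot be seen. The 35556 probe sets have no missing values and no 2 arrays are identical. Genes were named by the platform annotation from probe sets with 1 symbol. The probe set with the highest mean was kept, which gave 19938 genes with no filter on dim ones.

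In R 4.3.3, limma 3.58.1 (lmFit, eBayes) fitted 4 group means to all 12 arrays (8 residual and 2.44 prior degrees of freedom). Tests were two-sided, and p-values were adjusted within each comparison by Benjamini-Hochberg, with calls under 0.05. The script was tested on simulated data. Precision is limited by the array number. The members, lists and alternatives were chosen with earlier results of these data known.

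Values in every array are given for called members, for the 3 members of each role with the smallest unadjusted p in a comparison of 2 groups, and for Mki67, Top2a and Cdk1. Of each other pathway list, the gene with the smallest adjusted p is named where none is called; others named were chosen after their values were seen. Alternatives were another normalization (quantile, cyclic loess), mean probe sets, a brightness filter, trend and robust options, array weights, fits on the compared arrays, the run of sample codes as a block, and leaving out arrays.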

Additional observations from a re-analysis of the deposited data

How the results depend on the processing

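Over 20 or 21 alternatives per comparison the count of called members stayed 0, except 1 (Rrm1) without replicate 2 of the MHC-II-positive macrophages, within macrophages and averaged over cell kind, and 1 (Ccnd2, averaged) without replicate 1 of the MHC-II-positive melanophages; leaving out 1 array gave 0 to 1 in both comparisons and 0 in the other 5. Of 272 values of named members under alternatives, 271 kept direction and side of the threshold and 1 passed it (Rrm1 within macrophages, 0.74), and none turned. All named members were uncalled in the main fit, so this count says little about how stable their sizes were. The Ccne2 difference among MHC-II-negative cells ran from 0.13 to 0.80 and that of Cdk1 within melanophages from 0.18 to 0.73. Cenpe between the MHC-II-positive groups ran only from 0.22 to 0.28. The mitosis median between the MHC-II-positive groups (0.22) was 0.36 over bright genes, 0.15 with array weights, 0.14 without both far macrophage arrays and 0.12 to 0.25 leaving out 1 array. Within melanophages (0.14) it was 0.47 over bright genes and 0.11 to 0.20 leaving out 1 array. Within macrophages (-0.02) it was 0.05 without both far arrays and -0.04 to 0.04 leaving out 1, and among MHC-II-negative cells (0.07) 0.00 to 0.10. The S phase median between the MHC-II-positive groups (0.00) was -0.10 without both far arrays and -0.10 to 0.02 leaving out 1. Within macrophages (0.06) it was 0.15 and -0.01 to 0.14, within melanophages (0.10) 0.07 to 0.13, and among MHC-II-negative cells (-0.05) -0.09 to 0.01. The cause of these moves was not tested. The count of mitosis genes highest in MHC-II-positive melanophages (12) was 7 to 13 when 1 array was left out, an alternative added after seeing the data. The labels give no replicate numbers. With the run of sample codes in the titles as a block, 0 members were called in each of the 7 comparisons. Deviations of arrays of the same run correlated between -0.25 and 0.27 over all genes, which cannot show whether a run moved the members. The labels do not say what a run is, so the runs are not taken as pairs. The part of the runs in the mitosis values was not tested. Signal near the array median limits the 19 members that were bright in no array.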
